A study of Homo sapiens with 3 samples.

Results

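The genes described here are 9 oncogenes and growth regulators whose promoters are classical models of G-quadruplex (G4) or i-motif (iM) folding: MYC, BCL2, VEGFA, KIT, PDGFA, RET, TERT, HRAS and PIM1. They were listed by name for what is generally known of their promoters, at a time when earlier results of these data were known, and are 9 of 61193 genes with a row in the deposited tables. RNA-seq was performed on HEK293T cells, an established line from human embryonic kidney transformed with adenovirus DNA and expressing the large T antigen of SV40, in 3 replicates of 1 condition, untreated and collected 24 h after seeding. The methods call the replicates independent and biological, and the labels name the molecule genomic DNA although their protocol describes total RNA. Libraries were of the QuantSeq 3′ type, which is primed at the poly(A) tail, so that a read comes from close to the 3′ end of its transcript. With no second condition nothing was compared between treatments, and no test was made, since 3 values per gene cannot pass a permutation test at 0.05.

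G4s are four-stranded structures of guanine-rich DNA, built from stacked planes of 4 guanines, and iMs form on the cytosine-rich strand opposite, from pairs of cytosines that share a proton. Both need several tracts of the same base close together. Promoters of growth genes are rich in such tracts just upstream of the transcription start site (TSS), and folded G4s or iMs there have been studied as switches of transcription and as drug targets.

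A search for 4 tracts of at least 3 Gs or Cs with loops of 0 to 7 bases found at least 1 putative sequence within 1 kb of the TSS of the canonical transcript in 9 of the 9 genes, where 71.3% of 19913 protein-coding genes hold one. Within 250 bases of the TSS 8 of the 9 held one, BCL2 being the exception, against 49.3% of protein-coding genes. Since the genes are known for such sequences, these counts describe them and support nothing. To show what the tracts look like, 1 sequence upstream of the TSS and outside annotated exons is printed for each of 7 genes found in the RefSeq promoter table, on GRCh38, 5′ to 3′ on the coding strand, with capitals marking the tracts of at least 3 bases of the 1 base, G or C, that the search matched. Where the capitals are Gs the coding strand can carry the G4, and where they are Cs it can carry the iM and the template strand the G4.
BCL2, chr18:63320266-63320298, minus strand, 529 to 497 bases before the TSS: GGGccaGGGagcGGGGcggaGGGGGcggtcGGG
HRAS, chr11:535961-535997, minus strand, 421 to 385 bases before the TSS: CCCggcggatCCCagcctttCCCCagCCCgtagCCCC
KIT, chr4:54657835-54657854, plus strand, 122 to 103 bases before the TSS: GGGcGGGcgcgaGGGaGGGG
PDGFA, chr7:519892-519935, minus strand, 89 to 46 bases before the TSS: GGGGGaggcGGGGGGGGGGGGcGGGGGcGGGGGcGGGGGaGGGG
PIM1, chr6:37170075-37170130, plus strand, 77 to 22 bases before the TSS: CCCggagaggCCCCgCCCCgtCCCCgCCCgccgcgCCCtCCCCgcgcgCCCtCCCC
RET, chr10:43076985-43077034, plus strand, 84 to 35 bases before the TSS: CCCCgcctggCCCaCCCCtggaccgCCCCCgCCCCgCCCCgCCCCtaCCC
TERT, chr5:1295089-1295156, minus strand, 88 to 21 bases before the TSS: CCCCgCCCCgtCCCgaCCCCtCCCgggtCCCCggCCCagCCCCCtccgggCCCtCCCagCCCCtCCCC
The tracts differed in kind. PDGFA carried the longest run, 12 Gs in a row, KIT the shortest of the 7 sequences at 20 bases, and TERT the most tracts, 12 tracts of 3 to 5 Cs over 68 bases.

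In all, 38 putative sequences lay within 1 kb of the 9 TSSs, 22 of them upstream, as the map of the sequences around the TSS shows. HRAS held 8, PIM1 6, RET 5, and BCL2 and VEGFA 2 each. The median was 4 per gene and that of protein-coding genes 1, and the GC content of the same window was 56.9% to 76.2% with a median of 69.6%, against a median of 56.0% for protein-coding genes. The G-rich strand was the coding strand for 22 sequences and the template strand for 16, and in KIT it was the coding strand for all 4. In the 300-base RefSeq promoters, which run from 250 bases before to 50 bases after the start on GRCh38.p14, the letters GGGCGG on either strand, the core of the box bound by SP1, occurred in 6 of the 7 genes matched, from 1 time in KIT to 5 times in HRAS, and not in BCL2. They occurred in 45.0% of all 35116 promoters listed there. The letters TATAAA on either strand occurred in none of the 7, and in 11.5% of all promoters.

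**Figure D1:**
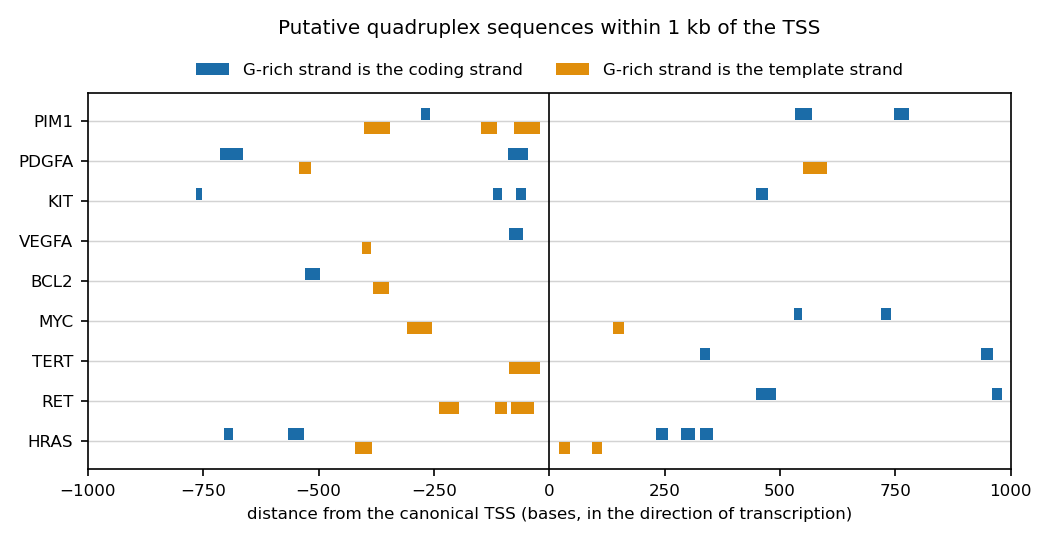
Putative quadruplex sequences within 1 kb of the canonical TSS of the 9 genes, with the distance from the TSS in bases on the horizontal axis and 1 line per gene. Blue bars mark sequences whose G-rich strand is the coding strand (22) and orange bars those whose G-rich strand is the template strand (16), and bar length is the length of the sequence.

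The deposited totals were 6262175 to 8521624 counts per replicate, and a count of 0, read as at most 3 counts, allows up to 0.352 to 0.479 counts per 1000000 (CPM). Mitochondrial genes took 9.59% of the counts of replicate 1, 5.70% of replicate 2 and 25.8% of replicate 3. Of 7 markers of the line 3 had a mean of at least 1 TPM (transcripts per 1000000): CDH2 (25.4 TPM), PAX2 (8.96 TPM) and KRT8 (1.35 TPM). VIM had 0, 6 and 5 counts, and KRT18, NEFL and NEFM were listed at 0. Of 5 markers of other cells, 4 were listed at 0 (PTPRC, ALB, HBB and COL1A2), and COL1A1, a collagen chain, had 24.8 TPM. In bulk RNA, fewer cells that express a gene and less RNA per cell cannot be told apart. Intervals below are exact 95% Clopper-Pearson intervals and cover only the error of counting, as PCR copies of a molecule were not told apart by identifiers.

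A mean TPM of 1 or more, called expressed here, was reached by 5 of the 9 genes, and 38.2% of 19926 protein-coding genes did. PIM1 was the highest at 55.0 TPM ± 11.1 (SD, n = 3), PDGFA and KIT followed at 14.4 and 13.4 TPM, VEGFA at 3.77 TPM, and BCL2 at 1.56 TPM. MYC and TERT had counts but stayed under 1 TPM, and RET and HRAS were listed at 0 in 3 of 3 replicates. Expressed genes were divided at their quartiles of 2.40 and 24.1 TPM into low, medium and high. By this division PIM1 was high, PDGFA, KIT and VEGFA medium and BCL2 low, and with the quartiles of each replicate alone the same category came out in every replicate for these 5 genes, apart from BCL2 in replicate 3, which was under 1 TPM.

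**Figure D2:**
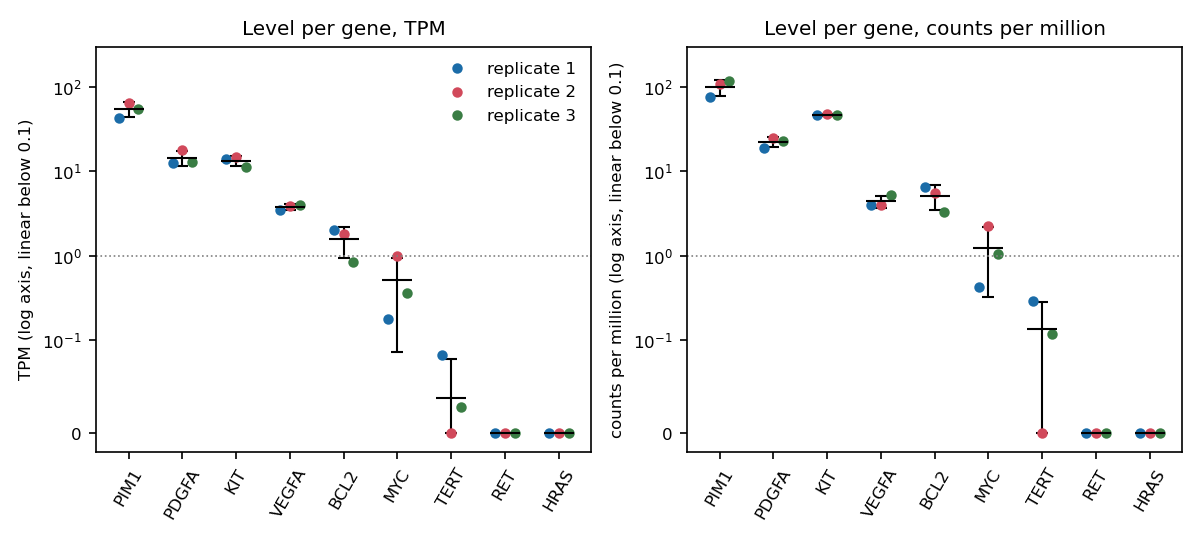
Level of each gene in TPM (left) and in CPM (right), with replicates as coloured points and mean ± SD (n = 3) in black. The vertical axes are logarithmic above 0.1 and linear below it, and the dotted line marks 1. PIM1 lies between 43.5 and 65.6 TPM, and RET and HRAS lie at 0 in each replicate.

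PIM1 (ENSG00000137193, chr6:37170152-37175428, plus strand) encodes a serine/threonine kinase that promotes survival and is induced by cytokines through STAT factors. It had 534, 680 and 1005 counts in replicates 1, 2 and 3, or 43.5, 65.6 and 55.7 TPM. Every replicate lay above each replicate of the other 8 genes on this scale. In CPM the values were 76.1 (interval 69.8 to 82.8), 109 (101 to 117) and 118 (111 to 125), so replicate 1 was lower than both others by more than counting error. The gene ranked at the 81.0th percentile of expressed protein-coding genes by TPM. The other kinases of the family were higher per length: PIM3 had 1047 TPM ± 267 and PIM2 232 TPM ± 101 (SD, n = 3). Of the 5 PIM and STAT genes listed, 4 reached 1 TPM, with a median of 15.6 TPM, and STAT5A was listed at 0.

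The 3 growth factor receptors and ligands that were expressed came next. PDGFA (ENSG00000197461, chr7:497258-520296, minus strand), a chain of platelet-derived growth factor, had 133, 156 and 197 counts, or 12.7, 17.8 and 12.8 TPM, with a mean of 14.4 TPM ± 2.92 (SD, n = 3). KIT (ENSG00000157404, chr4:54657267-54740783, plus strand), the receptor tyrosine kinase for stem cell factor, had 326, 298 and 394 counts, or 13.85, 14.99 and 11.39 TPM, with a mean of 13.4 TPM ± 1.84. The replicates of PDGFA and KIT overlapped in TPM, and the ratio of PDGFA to KIT was 0.918, 1.19 and 1.12 in the 3 replicates, with a mean of 1.08 ± 0.142. They did not overlap in counts, where the same ratio was 0.408 to 0.523, so the order of this pair depends on the division by length. KIT varied little in CPM, at 46.4, 47.6 and 46.2, a coefficient of variation of 1.56%, and more in TPM, at 13.7%. The CPM spread was narrower than counting error, with intervals of 41.5 to 51.8, 42.3 to 53.3 and 41.8 to 51.0. The median over expressed protein-coding genes was 27.0% in TPM, and 23.9% over those with at least 100 counts in every replicate.

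VEGFA (ENSG00000112715, chr6:43770184-43786487, plus strand), the main signal for growth of blood vessels, had 28, 25 and 45 counts, or 3.44, 3.87 and 4.01 TPM, with a mean of 3.77 TPM ± 0.297 (SD, n = 3). The replicates lay close together in TPM, and each was below every replicate of KIT and above every replicate of BCL2. With mitochondrial genes left out of the total, the values were 4.46, 4.58 and 7.19 TPM. Replicate 3, the one with the largest mitochondrial share and already the highest, then stood further above the others. In CPM the intervals overlapped, at 2.651 to 5.765, 2.584 to 5.893 and 3.852 to 7.066, and intervals without mitochondrial counts were not computed. KIT was 4.03, 3.87 and 2.84 times VEGFA in TPM.

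The partners of these factors were counted in part. Of 9 VEGF ligands and receptors 5 reached 1 TPM, with a median of 1.41 TPM. The highest were the receptor FLT4 (28.3 TPM ± 3.36) and the co-receptor NRP2 (19.3 TPM ± 2.70), and the main VEGFA receptor KDR was listed at 0. Of 5 PDGF ligands and receptors 2 reached 1 TPM, with a median of 0.180 TPM: the receptor PDGFRA (2.16 TPM ± 0.297) and the ligand PDGFC (1.36 TPM ± 0.458), while PDGFD was listed at 0. The ligands and co-receptors of KIT and RET had a median of 0 TPM, 6 of 9 being listed at 0, GFRA4 among them. NRTN (35.7 TPM ± 9.73) and PSPN (8.32 TPM ± 2.59), both ligands of the GDNF family that signal through RET, were the 2 at or above 1 TPM.

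BCL2 (ENSG00000171791, chr18:63123346-63320128, minus strand), which blocks release of cytochrome c from mitochondria and thereby apoptosis, had 46, 35 and 28 counts, or 2.01, 1.82 and 0.838 TPM, with a mean of 1.56 TPM ± 0.629 (SD, n = 3). Replicate 3 had the lowest value. In CPM its interval of 2.18 to 4.75 did not reach that of replicate 1, 4.80 to 8.74, but overlapped that of replicate 2, 3.89 to 7.77. The CPM totals include mitochondrial counts, 25.8% in replicate 3 and 9.59% in replicate 1, and intervals without them were not computed. Without mitochondrial genes the values were 2.60, 2.15 and 1.50 TPM, each above 1. In the BCL2 family 5 of 16 genes reached 1 TPM, with a median of 0.631 TPM. The highest were PMAIP1 (192 TPM ± 20.4) and HRK (33.1 TPM ± 4.52), both BH3-only promoters of apoptosis, and 6 genes, BMF among them, were listed at 0.

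MYC (ENSG00000136997, chr8:127735434-127742951, plus strand), the transcription factor that drives growth and ribosome production, had 3, 14 and 9 counts, or 0.178, 0.981 and 0.363 TPM, with a mean of 0.507 TPM ± 0.421 (SD, n = 3). No replicate reached 1 TPM, and replicate 1 was at the 3 counts that a count of 0 allows. The intervals in CPM were 0.0881 to 1.25, 1.22 to 3.75 and 0.483 to 2.01, those of replicates 1 and 2 meeting only at their edges. Without replicate 2 the mean was 0.270 TPM, so the level rests in large part on that library. The TPM of MYC in replicate 2 lay above that of BCL2 in replicate 3. Of 10 other genes of the MYC network 5 reached 1 TPM, with a median of 0.781 TPM. The highest were the MAX-binding repressors MXD4 (39.5 TPM ± 10.1) and MNT (26.6 TPM ± 4.63), and MYCN was listed at 0. Of 6 textbook MYC target genes 6 reached 1 TPM, with a median of 147 TPM, from LDHA at 4.19 TPM ± 2.32 to the nucleolar proteins NCL at 560 TPM ± 248 and NPM1 at 2002 TPM ± 761.

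TERT (ENSG00000164362, chr5:1253147-1295068, minus strand), the reverse transcriptase of telomerase, had 2, 0 and 1 counts, or 0.0833, 0 and 0.0283 TPM, within what a count of 0 allows in each replicate. Of 12 other genes of telomerase and of shelterin, the complex that caps telomeres, 4 reached 1 TPM, with a median of 0.198 TPM. The shelterin genes TERF2IP (503 TPM ± 134) and TERF2 (154 TPM ± 36.3) were the highest, and TERC, the telomerase RNA, which ends without a long poly(A) tail, was listed at 0.

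RET (ENSG00000165731, chr10:43077064-43130351, plus strand), the receptor tyrosine kinase for ligands of the GDNF family, had no count in any replicate. A count of 0 allows up to 0.118, 0.139 and 0.0801 TPM on its canonical transcript. HRAS (ENSG00000174775, chr11:532242-537321, minus strand), a small GTPase that passes receptor signals to the RAF kinases, was also listed at 0 in each replicate, where a count of 0 allows 0.618, 0.731 and 0.420 TPM on its shorter canonical transcript. Both bounds assume that reads on the canonical transcript were counted. In HRAS each base of that transcript lies in another listed transcript too, and how such reads were treated is not given in the sources used here. Of 16 other genes of the RAS pathway 9 reached 1 TPM, with a median of 4.59 TPM, led by NRAS (236 TPM ± 55.2) and the kinase MAP2K1 (76.7 TPM ± 17.0). GRB2, an adaptor that most cells use, had 2, 0 and 0 counts, and a 0 is therefore given here as listed, not as absence of expression.

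In order of mean TPM, replicates of neighbouring genes were separate for 4 of the 8 pairs: PIM1 above PDGFA, KIT above VEGFA, VEGFA above BCL2, and MYC above TERT. The last pair rests on 3 counts against 2 in replicate 1, both within what a count of 0 allows, so at this depth no difference between MYC and TERT was detectable there. PDGFA and KIT overlapped, as did BCL2 and MYC, TERT and RET, and RET and HRAS. PIM1 was 3.42, 3.68 and 4.35 times PDGFA. In CPM KIT lay above PDGFA in the mean and in each replicate, where in TPM it did so in replicate 1 alone. The order of BCL2 and VEGFA was turned in CPM in the mean and in replicates 1 and 2. In replicate 3 VEGFA had 1.61 times the counts of BCL2.

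The transcript rows show where the counts lay. The 9 genes had 78 rows and 3959 counts over the replicates, and 6 rows, 1 per gene in PIM1, KIT, PDGFA, BCL2, VEGFA and MYC, held 3951 of them, or 99.8%. In each of the 7 genes with counts over 90% of the counts fell on 1 row, TERT with its 3 counts among them. Of the 6 genes with 10 or more counts 6 did so, and of 8979 protein-coding genes with 10 or more counts 71.8% did. In the annotation, each of the 6 rows had 43 to 300 of its last 300 exonic bases in no other listed transcript on either strand. Bases of this kind are called own below. The 61 rows with no own base among their last 300 held 6 counts, 0.152% of the total, and the 17 rows with at least 1 held 3953. Over all 223558 matched rows, 42.6% had an own base there, judged on the same strand, and the 128262 rows without one held 5.51% of the counts. Of the 18753 matched rows with 10 or more counts 88.5% had one, so the 6 rows here are not unusual in this. How reads on several transcripts were treated in the counting is not given in the sources used here, and its part in these values was not tested.

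**Figure D3:**
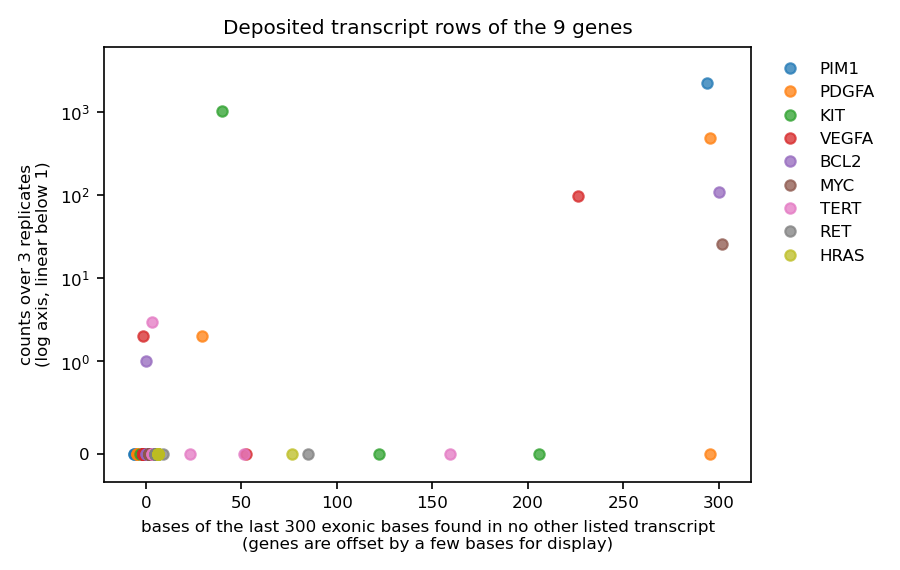
The 78 transcript rows of the 9 genes, with the number of own bases among the last 300 exonic bases (horizontal) against the counts over 3 replicates (vertical, logarithmic above 1 and linear below it), coloured by gene. The 6 rows with 10 or more counts have 43 to 300 own bases, and most rows lie at 0 on both axes.

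PIM1 had 3 listed transcripts. ENST00000373509, the canonical one, held all 2219 counts, runs past both others to a 3′ end of its own at position 37175428, and has 300 own bases of the last 300. PDGFA was alike, with 484 of 486 counts on ENST00000402802, which ends at 497258 with 300 own bases. Its deposited length of 2305 bases differs from 2742 bases in the annotation used here. In KIT all 1018 counts were on ENST00000288135, with 43 own bases at an end 43 bases past that of ENST00000412167, which had no count. The deposited lengths of both KIT rows differ from the annotation (5186 against 5147 bases and 3470 against 5126 bases), so the own bases of KIT may be others in the annotation that was used for counting. MYC had 10 listed transcripts, and its 26 counts were all on ENST00000621592, which ends at 127742951 with 300 own bases. The 3 MYC transcripts that share the end at 127741434 have no own base among their last 300 and had no count. The MYC level given above is thus that of the end at 127742951 alone.

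In VEGFA and BCL2 the counts were not on the canonical transcript. Of 98 VEGFA counts 96 were on ENST00000476772, an annotated retained intron transcript that ends inside the gene at 43778764 and has 228 own bases, and 2 on ENST00000480614. The canonical VEGFA transcript and 4 others share the end at 43786487 and had 0 counts, and 24 of 26 VEGFA rows had no own base among their last 300. Of 109 BCL2 counts 108 were on ENST00000589955, which ends at 63313802, within the long intron of the gene, with 300 own bases. The canonical BCL2 transcript and 1 other share the end at 63123346, have no own base there and held 1 count. The VEGFA and BCL2 levels given above are thus almost wholly those of these 2 ends. The map of transcript models shows PIM1, MYC, VEGFA and HRAS.

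**Figure D4:**
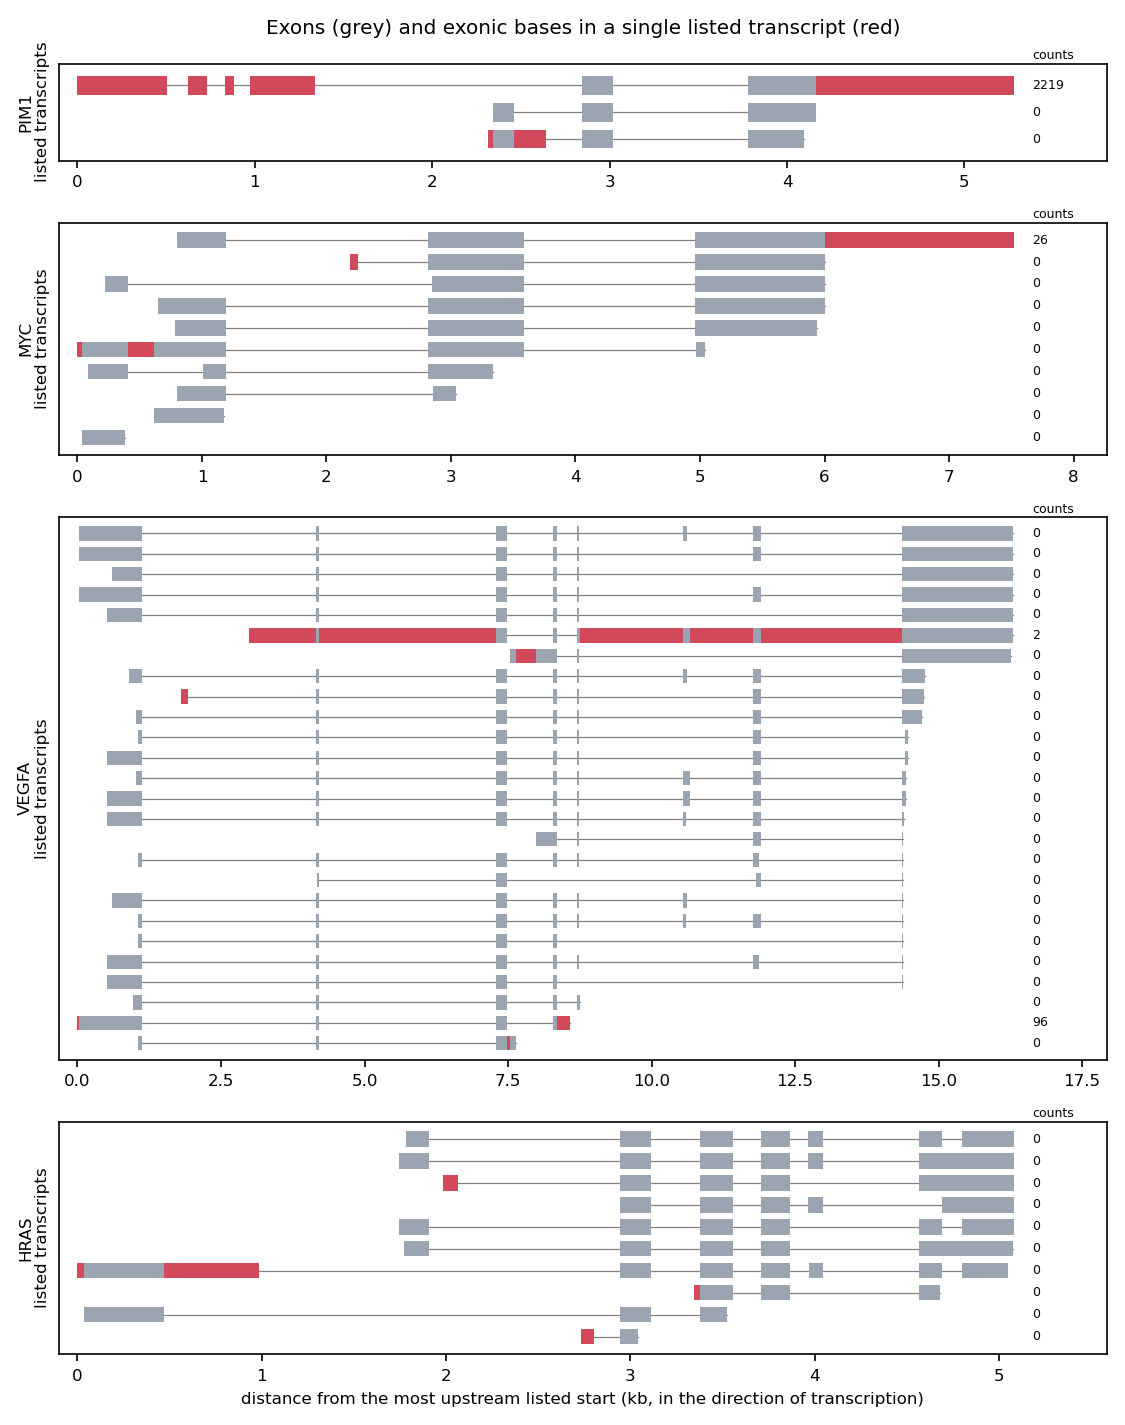
Listed transcripts of PIM1, MYC, VEGFA and HRAS, with distance from the most upstream listed start in kb on the horizontal axis, exons in grey, own bases in red and the counts over 3 replicates at the right. Most counts lie on transcripts whose 3′ end is red (2219 in PIM1, 26 in MYC, 96 in VEGFA), 2 lie on a VEGFA transcript whose end is grey, and HRAS has no counts.

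Rows without an own 3′ end were common in counted and uncounted genes alike. They were 24 of 26 in VEGFA, 9 of 10 in MYC and 3 of 4 in BCL2, where the counts lay almost wholly on a row with one. In HRAS 9 of 10 rows had no own base among the last 300, and 5 rows share the end at 532242. RET had 6 such rows of 8, and its canonical transcript ENST00000355710 had 80 own bases and 0 counts. TERT had 4 of 7 rows without an own base there, and its other rows, with 20, 48 and 156, had 0 counts. The 3 TERT counts were on ENST00000656021, a transcript annotated as a target of nonsense-mediated decay, with no own base at its end and 1271 elsewhere. The other counted rows with no own base at the end, ENST00000480614 in VEGFA and ENST00000398117 in BCL2, had 9593 and 580 own bases elsewhere. Genes on the opposite strand held no counts. Those with exons over 1 of the 9 genes (CASC11 at MYC, ENSG00000272114 at VEGFA, whose TSS lies 405 bases from that of VEGFA, and ENSG00000287486 at TERT) and PDGFA-DT, whose TSS lies 545 bases from that of PDGFA, were listed at 0 in each replicate, and ENSG00000289997 at HRAS had no matched row.

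The same property was set beside the level of other genes. Of protein-coding genes whose canonical transcript had 300 own bases at its end 53.4% were expressed, against 33.6% where part of the last 300 bases were own and 26.0% where none were. Among the 108 genes of the pathway lists the shares were 23 of 31 (74.2%), 9 of 19 (47.4%) and 19 of 56 (33.9%), the canonical transcript of 2 further genes having no row, with median levels of 20.7, 0.557 and 0.253 TPM. Of the 9 promoter genes, PIM1, PDGFA and MYC are in the first class, KIT and RET in the second, and VEGFA, BCL2, TERT and HRAS in the third. With so few in a class the 9 genes alone show no order.

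**Figure D5:**
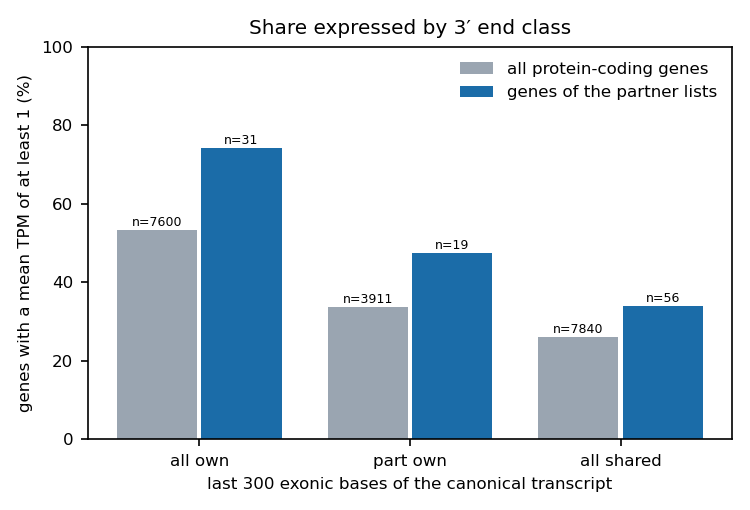
Percentage of genes with a mean TPM of at least 1 (vertical) by whether the canonical transcript has all, part or none of its last 300 exonic bases to itself (horizontal), for all protein-coding genes in grey and for the pathway lists in blue, with n above each bar. The share falls from 53.4% to 26.0% and from 74.2% to 33.9%.

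Set beside the levels, the number of putative sequences within 1 kb was 6 in PIM1, the highest in TPM. HRAS, with the most at 8, and RET, with 5, were listed at 0. KIT and PDGFA held 4 each at 13.4 and 14.4 TPM, and MYC held 4 at 0.507 TPM. TERT held 3 at 0.0372 TPM, and VEGFA and BCL2 held 2 each at 3.77 and 1.56 TPM. Over all protein-coding genes 42.0% of those with such a sequence within 1 kb were expressed, and 28.6% of those without, while the median level of the expressed genes was 10.5 TPM with and 9.99 TPM without one.

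Other genes known for G4 or iM promoters and proteins that bind such promoters were read from the same tables. Of 10 further promoter genes 4 reached 1 TPM, with a median of 0.367 TPM. RB1, the retinoblastoma protein, had 30.6 TPM ± 7.33 and CCND1, cyclin D1, 22.2 TPM ± 11.1, and 4 genes, among them the kinase SRC, were listed at 0. Of 12 binding proteins 7 reached 1 TPM, with a median of 4.33 TPM. The DNA damage sensor PARP1 had 825 TPM ± 286 and NCL, which also stands among the MYC targets, 560 TPM ± 248. SP1, a factor of most cell types, was 1 of 4 listed at 0.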

How the data were processed

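Total RNA of 3 replicates was made into 3′ libraries. The authors deposited, per transcript and library, unnormalized whole-read counts, a length in bases and TPM. In the deposited TPM a count is divided by the length and each library is scaled to a sum of 1000000. The submitters' processing notes name hg38, Trimmomatic 0.38.0, HISAT2 2.2.1 and featureCounts 2.2.1, and strand and the treatment of reads on several transcripts are not given in the sources used here. Division by length lowers long transcripts in 3′ data, where reads do not grow with length.

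Of 247541 deposited transcripts 223558 matched GENCODE 44 on GRCh38 by ID without version, and counts and TPM were summed per gene. The lengths of 13302 matched rows, with 8.25% of the counts, differ from GENCODE 44. CPM used the deposited totals. Own bases are exonic bases that no other listed transcript covers. Named are all 9 genes, their rows with at least 10 counts, neighbours within 1 kb on the opposite strand or with overlapping exons and, of each list (MYC network, MYC targets, BCL2 family, VEGF, PDGF, KIT and RET partners, telomerase and shelterin, RAS pathway, PIM kinases and STATs, other promoter genes, binding proteins, markers), the 2 highest and the lowest gene, further markers, rows and KIT and RET details being chosen after their values were seen. The genes and lists were chosen with earlier results of these data known. Alternatives were other thresholds, scalings (TMM in edgeR 4.0.16, size factors in DESeq2 1.42.0), search rules, the median, another pseudocount and each replicate left out. The search and the sums were tested on simulated data. R 4.3.3, Python 3.11.15 and, for Python, scipy 1.17.1, pandas 2.3.3 and numpy 2.4.6 were used.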

Additional observations from a re-analysis of the deposited data

How the results depend on the processing

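With a threshold of 10 TPM in place of 1, 3 of the 9 genes were expressed (PIM1, PDGFA and KIT) and not 5. The counts of expressed genes, of genes with a putative sequence and of genes with most counts on 1 row stayed within 1.5 times under the other alternatives run. A looser rule cannot lower a count that is already 9 of 9, or 7 of the 7 genes with counts, so such alternatives could not move these. Under the stricter rule of 5 tracts 9 of the 9 genes held a putative sequence, and 48.7% of protein-coding genes did. The number of neighbouring pairs with separate replicates was 4, was 5 in CPM, without mitochondrial genes and with TMM or DESeq2 scaling, and was 4 to 6 with a replicate left out. Single levels moved by more than the replicate SD for 7 genes in CPM and for 4 genes (PIM1, PDGFA, KIT and VEGFA) without mitochondrial genes. CPM is another unit than TPM, and leaving out mitochondrial genes can only raise the TPM of the other genes. These moves therefore follow from the scale and do not measure how stable a level is. With 3 replicates the median, or a mean without 1 replicate, cannot lie more than 1 SD from the mean, so these say nothing by that measure. Leaving out 1 library moved a level by over 1.5 times in MYC (from 0.507 to 0.270 TPM without replicate 2) and in TERT (from 0.0372 to 0.0142 TPM without replicate 1). On the log2(TPM + 1) scale the replicate SD ran from 0.06 in TERT to 0.39 in MYC. A pseudocount of 0.1 can only widen it, and gave 0.44 in TERT and 0.99 in MYC. The low value in TERT comes from levels far below the pseudocount of 1. In plain TPM its coefficient of variation of 114% was the largest of the genes with counts. No paired analysis was possible because all libraries come from a single condition. In MYC, TERT, RET and HRAS 3 counts are a large part of, or more than, what was seen. The parts of depth and of the treatment of reads on several transcripts in these low values were not tested.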
